A study of Mus musculus with 8 samples.

Results

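Overlapping SMCHD1 regions were taken from the 2840 regions over which the GFP ChIP-seq reads had been counted. Each region was a published SMCHD1 peak with 5000 bp added on both sides, and a region was kept when it shared at least 1 base with another region and did not overlap 1 of the 4 *Hox* clusters. This left 735 regions, which chain into 229 domains, beside 168 regions at the *Hox* clusters and 1937 isolated regions. ChIP-seq counts the DNA fragments that an antibody recovers along the genome. Here the antibody was against GFP fused to endogenous SMCHD1, and the cells were primary female neural stem cells (NSCs) derived from E14.5 cortex of C57BL/6J mice. The compared genotypes were Smchd1GFP+/+ (WT, 3 lines) and Smchd1GFPMommeD43/MommeD43 (*MommeD43*, 3 lines). Both carried the tag on both alleles, and the second also the *MommeD43* missense change in the extended ATPase domain, made by genome editing in the tagged mice. The labels give fewer than 10 passages for the cells and no treatment. The identity of the cells could not be checked from these values, which are not expression.

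SMCHD1 is a noncanonical SMC protein, related to the proteins that build cohesin and condensin. Its hinge domain dimerises and binds nucleic acid, and its N-terminal part holds a GHKL-type ATPase. It is known for silencing on the inactive X chromosome, at imprinted clusters and at the clustered protocadherins, and for its presence over the *Hox* clusters, long stretches of neighbouring developmental genes.

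For each region there was 1 merged value per genotype, the authors' mean over 3 lines of the log2 count normalized by library size. No spread between lines was left in these values, so no difference below has an SD over lines or a test, and all counts of regions are descriptions. Counting error was estimated from the values themselves as a lower bound. The median member held 319 reads per WT library and 287 reads per *MommeD43* library, and counting alone gave its difference an SD of 0.07 on the log2 scale. Neighbouring regions are not independent, because the median member shared 91.3% of its bases with other regions and the same reads were counted in each.

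The domains were mostly small. Of the 229 domains, 143 held 2 regions, 29 held 3, and 35 held 5 or more, which together contained 274 of the 735 regions. The domains spanned 10600 to 65050 bp with a median of 14350 bp. From the first to the last base in a peak the median was 4350 bp, the rest being the added 5000 bp at each end. All domains together covered 3.87 Mb, whereas the lengths of the 735 regions added up to 7.90 Mb. The domains lay on all 19 autosomes. There were none on the X chromosome, which had 10 listed regions, and none on Y, which had 2. Another domain lay within 100 kb of 26 domains.

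**Figure D1:**
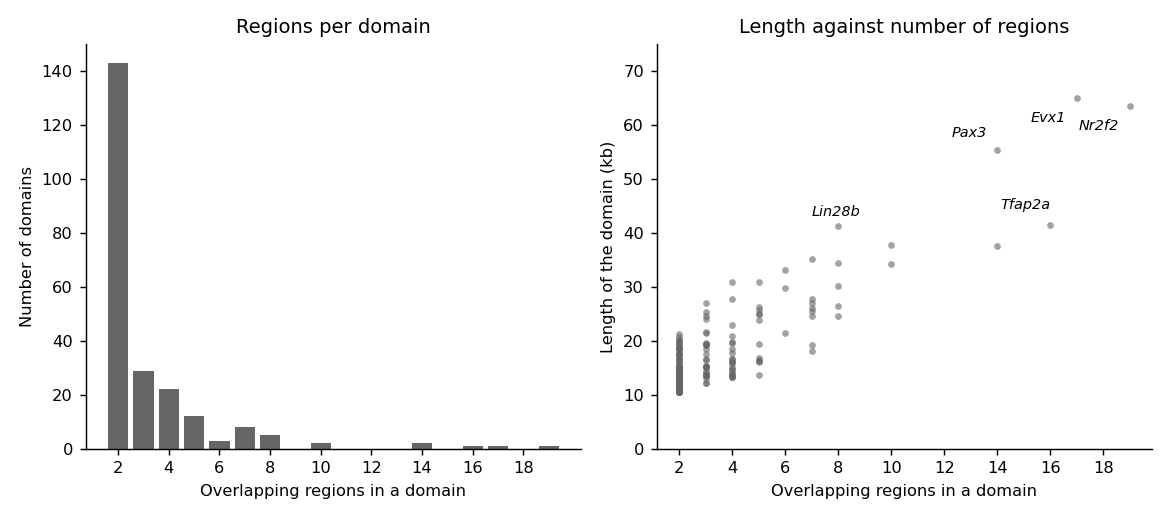
Left, number of domains (bars) for each number of overlapping regions. Right, length of each of the 229 domains in kb (points) against its number of regions. Most domains held 2 regions (143 of 229), and the *Nr2f2* and *Evx1* domains stand apart by both measures, *Pax3* by length.

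The sequences under the peaks differed widely in CpG content, which is why a few are shown here. They are the central 300 bases of the strongest peak with no exon at its centre, from 4 of the domains with most regions (*Nr2f2*, *Tfap2a*, *Pax3* and *Uncx*), from the large but AT-rich *Lin28b* domain, and from 3 domains with large differences between genotypes (*Tbx3*, *Tmem132b* and *Plag1*). All are on the plus strand of GRCm38.p6, and capitals mark each CG dinucleotide.
Nr2f2, chr7:70361776-70362075: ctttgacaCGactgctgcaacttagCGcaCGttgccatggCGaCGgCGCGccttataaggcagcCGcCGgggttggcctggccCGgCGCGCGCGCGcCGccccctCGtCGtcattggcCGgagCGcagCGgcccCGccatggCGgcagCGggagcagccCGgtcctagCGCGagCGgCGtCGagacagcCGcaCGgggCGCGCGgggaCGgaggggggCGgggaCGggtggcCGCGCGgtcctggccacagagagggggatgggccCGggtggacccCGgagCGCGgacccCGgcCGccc
Tfap2a, chr13:40730776-40731075: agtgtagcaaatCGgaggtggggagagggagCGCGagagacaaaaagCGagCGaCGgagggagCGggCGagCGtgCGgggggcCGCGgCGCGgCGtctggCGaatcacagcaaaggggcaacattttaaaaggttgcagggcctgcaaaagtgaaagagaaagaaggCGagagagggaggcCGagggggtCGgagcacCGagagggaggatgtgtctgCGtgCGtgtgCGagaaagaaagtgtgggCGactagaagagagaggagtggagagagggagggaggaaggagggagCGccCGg
Pax3, chr1:78198976-78199275: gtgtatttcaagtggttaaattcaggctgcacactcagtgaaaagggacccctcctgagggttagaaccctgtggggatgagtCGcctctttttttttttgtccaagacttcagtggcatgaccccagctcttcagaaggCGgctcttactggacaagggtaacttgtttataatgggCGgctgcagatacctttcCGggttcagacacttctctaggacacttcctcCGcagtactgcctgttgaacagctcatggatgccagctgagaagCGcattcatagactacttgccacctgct
Uncx, chr5:139557301-139557600: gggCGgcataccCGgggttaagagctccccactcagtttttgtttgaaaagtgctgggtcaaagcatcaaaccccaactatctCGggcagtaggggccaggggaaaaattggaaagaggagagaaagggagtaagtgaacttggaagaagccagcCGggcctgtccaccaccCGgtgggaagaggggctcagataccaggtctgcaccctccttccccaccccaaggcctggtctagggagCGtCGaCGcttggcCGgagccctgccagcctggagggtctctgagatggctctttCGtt
Lin28b, chr10:45472126-45472425: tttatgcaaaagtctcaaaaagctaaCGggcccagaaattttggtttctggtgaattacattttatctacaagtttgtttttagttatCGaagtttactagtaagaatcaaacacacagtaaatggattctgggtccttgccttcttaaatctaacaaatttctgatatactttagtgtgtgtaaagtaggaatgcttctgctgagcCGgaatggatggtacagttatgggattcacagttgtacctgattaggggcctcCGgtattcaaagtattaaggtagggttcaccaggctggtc
Tbx3, chr5:119687101-119687400: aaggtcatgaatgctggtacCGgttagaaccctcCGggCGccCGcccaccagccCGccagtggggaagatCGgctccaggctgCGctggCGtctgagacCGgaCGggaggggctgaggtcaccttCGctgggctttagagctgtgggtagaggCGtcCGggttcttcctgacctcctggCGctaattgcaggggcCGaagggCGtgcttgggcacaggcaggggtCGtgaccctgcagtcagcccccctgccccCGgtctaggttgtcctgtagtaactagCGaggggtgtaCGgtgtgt
Tmem132b, chr5:125676301-125676600: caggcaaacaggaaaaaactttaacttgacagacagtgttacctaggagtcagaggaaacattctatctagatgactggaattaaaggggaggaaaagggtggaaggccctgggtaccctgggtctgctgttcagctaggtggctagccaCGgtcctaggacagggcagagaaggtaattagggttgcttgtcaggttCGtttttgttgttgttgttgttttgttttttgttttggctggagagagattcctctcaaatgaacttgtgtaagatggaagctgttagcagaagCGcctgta
Plag1, chr4:3934651-3934950: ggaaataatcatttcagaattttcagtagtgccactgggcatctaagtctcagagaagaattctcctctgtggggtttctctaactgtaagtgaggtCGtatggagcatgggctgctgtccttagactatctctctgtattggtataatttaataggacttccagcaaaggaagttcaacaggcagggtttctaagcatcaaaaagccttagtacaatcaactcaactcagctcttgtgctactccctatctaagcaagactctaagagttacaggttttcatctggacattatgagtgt

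The *Nr2f2* sequence, within a peak of 7950 bp, held 47 CG dinucleotides at 77.7% GC. The *Tfap2a* sequence held 26 and the *Tbx3* sequence 20. At the other end the *Lin28b* sequence held 4, the *Tmem132b* sequence 3 and the *Plag1* sequence 1. A CpG-rich centre was thus not shared by all the peaks shown. These are 1 peak per domain, and peaks with an exon at the centre were passed over. They therefore do not tell whether other peaks of the same domain had a CpG-rich centre. Over all member peaks, those with an exon at the centre included, the central 300 bases had a median of 5 CG dinucleotides. The median was 2 in isolated peaks, 5 in *Hox* peaks and 2 over all listed peaks. At least 10 were found in 29.1% of member peaks, 31.5% of *Hox* peaks and 17.7% of all peaks. There were none at all in 9.52%, 7.74% and 16.1%, in the same order. Over whole peaks the observed to expected CpG ratio had a median of 0.36 in the members, 0.18 in isolated peaks and 0.39 in *Hox* peaks.

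Members were also placed differently from isolated regions with respect to genes. Of the 735 member peaks, 144 (19.6%) lay within 1000 bp of the start of a protein-coding gene, 160 (21.8%) overlapped an exon, 207 (28.2%) were intronic and 224 (30.5%) lay outside genes. The shares in the 1937 isolated peaks were 11.9%, 8.88%, 32.7% and 46.5%. Member peaks were longer than isolated peaks, with a median of 600 bp against 450 bp, and shorter than *Hox* peaks (1050 bp). Per domain, 147 of 229 (64.2%) held the start of an annotated gene and 121 (52.8%) that of a protein-coding gene, while 40 (17.5%) overlapped no gene. In the 121 domains with a protein-coding start, the strongest peak was centred within 2000 bp of it in 72, further downstream in 36 and further upstream in 13.

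Developmental regulators were frequent among these genes. A list of transcription factor families (homeobox and paired box outside the *Hox* clusters, T-box, SOX, forkhead, GATA, ZIC and GLI, bHLH, AP-2 and EBF) named 283 protein-coding genes by their symbols, without being complete for each family, of which 46 (16.3%) started in a domain. Of all 21938 protein-coding genes 137 (0.624%) did. Counted by regions of similar length, 129 of the 735 members (17.6%) contained the start of a listed regulator. This was so in 27 of the 1937 isolated regions (1.39%) and in 157 of all 2840 listed regions (5.53%). Overlapping members can contain the same start, so the 129 members stand for the 46 genes and are not separate cases. The list was drawn up with earlier results of these data known, so these shares are descriptions.

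The homeobox and paired-box genes made up most of them. Of 134 such genes on the list 28 started in a domain and 13 in an isolated region. Among them were *Alx1*, *Dlx2*, *Dlx6*, *Evx1*, *Evx2*, *Irx1*, *Irx2*, *Irx5*, *Isl1*, *Lhx5*, *Meis2*, *Msx1*, *Nkx2-1*, *Nkx6-1*, *Onecut1*, *Onecut2*, *Otx1*, *Pax1*, *Pax2*, *Pax3*, *Pax9*, *Pou3f3*, *Six3*, *Uncx*, *Vax2* and *Zfhx4*. Of the other families, bHLH genes had 5 of 47 (*Atoh1*, *Bhlhe22*, *Hand2*, *Neurog2* and *Twist1*), forkhead genes 4 of 44 (*Foxa1*, *Foxd1*, *Foxd2* and *Foxp2*), AP-2 genes 3 of 5 and the ZIC and GLI genes 2 of 8 (*Zic1* and *Zic4*, in 1 domain). T-box, SOX, GATA and EBF genes had 1 each (*Tbx18*, *Sox2*, *Gata6* and *Ebf2*). With any part of a gene counted instead of its start, *Cdx2*, *Gata3*, *Gata4* and *Tbx3* were added. Signalling genes were less frequent than the listed regulators, with 1 of 88 (*Fgf9*, 1.14%), beside 0.624% of all protein-coding genes.

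Many of these factors pattern tissues other than the cortex from which the cells were taken. The longest chain, 19 regions, lay over *Nr2f2* (ENSMUSG00000030551, minus strand of chromosome 7, 70351944 to 70366735), which encodes the nuclear receptor COUP-TFII. It ran from 22465 bp upstream to 41084 bp downstream of the gene start, so that it extended past the gene's far end. The merged values of its regions averaged 9.42 in WT (7.86 to 10.41) and 9.50 in *MommeD43* (8.17 to 10.51). The lowest region was the one furthest upstream and the highest the one 4810 bp downstream of the start, around the long CpG-rich peak shown above. Each region had more signal in *MommeD43*, by 0.00 to 0.31. Regions of a chain share reads, here and below, so their agreement in sign is not a count of separate measurements.

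The *Evx1* domain had 17 regions and lay just outside the *Hoxa* cluster, sharing bases with listed regions that overlap the cluster but not with the cluster itself. *Evx1* is a homeobox gene (ENSMUSG00000005503, plus strand of chromosome 6, 52313498 to 52318378). Its regions averaged 9.68 in WT (9.14 to 10.63) and 9.79 in *MommeD43* (9.28 to 10.76). The highest lay at -41573 bp from the *Evx1* start (negative upstream), at the end next to *Hoxa*, and the level dipped between there and the gene in both genotypes. The *Evx2* domain next to *Hoxd*, on chromosome 2 from 74645651, had only 3 regions but the highest mean of all domains, 10.32 in WT and 10.48 in *MommeD43*. With the 2 domains beside *Hoxc* on chromosome 15 these were the 4 domains that touched a *Hox* region.

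The *Tfap2a* domain came next with 16 regions. *Tfap2a* (ENSMUSG00000021359, minus strand of chromosome 13, 40715302 to 40738376) encodes AP-2 alpha, a factor of the neural crest and surface ectoderm. The regions averaged 9.26 in WT (8.65 to 9.85) and 9.32 in *MommeD43* (8.61 to 9.87). They peaked 7451 bp downstream of the start and fell away on both sides. The sign was mixed, with 12 of 16 higher in *MommeD43* and differences from -0.11 to 0.16.

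*Pax3* had 14 regions. The gene, required in neural crest and muscle progenitors (ENSMUSG00000004872, minus strand of chromosome 1, 78101267 to 78197134), averaged 9.46 in WT (8.72 to 9.99) and 9.59 in *MommeD43* (8.996 to 10.07). Its strongest peak was centred 109 bp from the gene start and the chain reached about as far upstream (26716 bp) as downstream (28583 bp). Every *Pax3* region was higher in *MommeD43*, by 0.07 to 0.29.

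**Figure D2:**
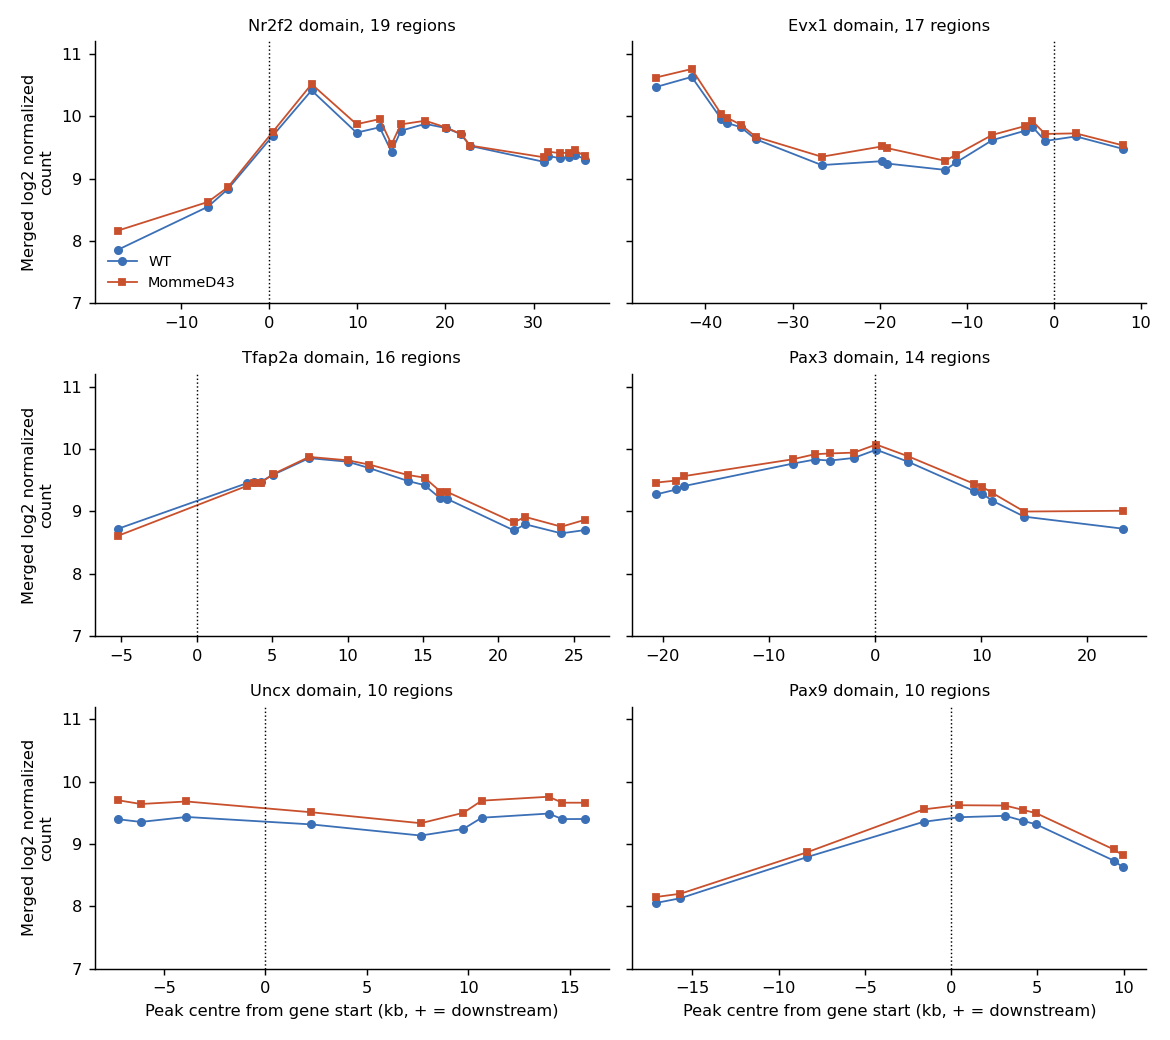
Merged log2 normalized counts of every region (points, joined for reading) in 6 of the domains with most regions, in WT (blue) and *MommeD43* (red), against the distance of the peak centre from the gene start in kb, with positive values downstream. The genotypes follow the same course in each panel, with 1 value per genotype and no error bars, and the WT level at *Nr2f2* runs from 7.86 to 10.41.

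*Uncx* and *Pax9* had 10 regions each. *Uncx*, a homeobox gene of the developing vertebrae (ENSMUSG00000029546, plus strand of chromosome 5, 139543494 to 139548179), averaged 9.36 in WT (9.14 to 9.49) and 9.62 in *MommeD43* (9.34 to 9.76). This was the flattest of the 6 chains plotted, and each of its 10 regions was higher in *MommeD43*, by 0.19 to 0.30. The second gene, *Pax9*, of pharyngeal pouches and teeth (ENSMUSG00000001497, plus strand of chromosome 12, 56691767 to 56712822), averaged 8.93 in WT (8.05 to 9.45) and 9.08 in *MommeD43* (8.15 to 9.62).

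Of the 12 largest domains, 5 had 8 regions each. *Nkx6-1*, a gene of ventral neural progenitors and beta cells, averaged 9.14 in WT (7.73 to 9.82) and 9.47 in *MommeD43* (8.29 to 10.13). *Nkx2-1*, of the ventral forebrain, thyroid and lung, averaged 9.03 (8.57 to 9.37) and 9.02 (8.60 to 9.40). At *Nkx2-1* the signs were split, with 4 higher in *MommeD43* and 4 lower, whereas all 8 were higher at *Nkx6-1*. The Iroquois gene *Irx2* averaged 8.43 (8.14 to 8.53) in WT and 8.64 (8.43 to 8.81) in *MommeD43*. *Tbx18*, a T-box gene of the sinus node and ureter, averaged 9.01 (8.79 to 9.29) and 9.19 (8.97 to 9.44). *Lin28b*, which encodes an RNA-binding protein that blocks *let-7* maturation, was the weakest of these 5, with 7.71 (7.18 to 8.33) in WT and 7.80 (7.23 to 8.39) in *MommeD43*. Of its 8 peaks 5 were intronic, and the domain reached 31944 bp downstream of the start.

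Long chains were not limited to the listed genes. Of the 35 domains with 5 or more regions, 18 held the start of a listed regulator. Among the other 17, chosen after their values were seen, were *Fezf1*, *Prdm13*, *Prdm8*, *Sim1* and *Otp*, which encode further developmental transcription factors. *Otp* is itself a homeobox gene and *Sim1* a bHLH gene, so the counts given for those families leave them out. *Fezf1* averaged 8.73 in WT and 8.80 in *MommeD43* over 7 regions, and the other 4 genes had 5 regions each with WT means of 8.84 to 9.22. The *Gata4* domain, 7 regions within the gene, averaged 9.61 and 9.80. *Tchh*, a hair follicle gene, was at 9.68 and 9.79 over 7 regions. A domain of 7 regions inside *4930447C04Rik* on chromosome 12 was weaker, at 7.85 and 7.75.

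Levels of different domains were compared per kb of region, since longer peaks give longer regions. Per kb, the median log2 value of the members was 5.33 in WT and 5.42 in *MommeD43*, against 3.86 and 3.88 in isolated regions, 6.67 and 6.87 in *Hox* regions and 4.36 and 4.44 over all listed regions. As deposited, the medians of the members were 8.78 and 8.85. On a linear scale the members held 34.0% of the summed signal of the listed regions in WT and 34.4% in *MommeD43*, with overlapping bases counted more than once. The WT reads had been published earlier, as had the peaks, so the level in WT and the crowding of peaks may not be independent measures.

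Among the 10 domains with the highest mean value in WT were *Evx2* (10.32), *Tchh* (9.68), *Evx1* (9.68), *Msx1* (9.61), *Gata4* (9.61), *Onecut2* (9.58), a 4-region domain on chromosome 8 from 123620351 (9.57), *Zfp503* (9.54) and *Pax3* (9.46). Of the 10, 9 were also among the 10 highest per kb. *Msx1* is a homeobox gene of craniofacial development, *Onecut2* a homeobox gene of liver and neurons, and *Zfp503* a zinc finger gene. In *MommeD43* the domains named had 10.48, 9.79, 9.79, 9.89, 9.80, 9.73, 10.05, 9.91 and 9.59, in the same order. The chromosome 8 domain contains annotated 5S ribosomal RNA genes, and 54.7% to 77.7% of the 31-base sequences in its regions occurred once in the genome, against a median of 97.1% in the members. The part of repeated sequence in its level was not tested.

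Regions with more peaks in their window had higher values. These measures may not be independent, because the published peaks may have been called on the same WT reads. Per kb, the WT median was 4.51 in the 83 members whose window reached no other peak, 4.91 in the 299 with 2 peaks, 5.47 in the 222 with 3 or 4, and 5.94 in the 131 with 5 or more. The medians in *MommeD43* were 4.78, 5.07, 5.58 and 6.07. The difference between genotypes had no such order, with medians of 0.11, 0.09, 0.13 and 0.11. Domains with the start of a listed regulator (45) had a median of 5.56 per kb in WT and 5.66 in *MommeD43*, and the other 184 domains 4.73 and 4.91. Over the 228 domains with a WT mean above 4, the mean value per kb went with GC content (Pearson's r = 0.75 across domains) more than with the CpG ratio of the peaks (0.41) or the number of regions (0.33). GC content also affects recovery in sequencing, and its part in these levels was not tested.

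Within a domain the values differed little. The range of the WT value within a domain had a median of 0.13, and 0.56 in the 35 domains of 5 or more regions. The SD of WT values within domains was 0.32, against an SD of 1.14 between domain means. The widest range in a domain of unique sequence was at *Nr2f2* (2.56), followed by *Pcsk2* (2.35), a prohormone convertase gene, and *Nkx6-1* (2.10). The differences between genotypes were still closer, with a median range of 0.05 and an SD of 0.06 within domains against 0.19 between domains. Shared reads bring neighbours together in both measures.

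The merged values of the 2 genotypes were then compared over the members. Those values count reads over the whole region, the added 5000 bp included. The whole cell extract (WCE) libraries were not used here. The value was higher in *MommeD43* in 564 of 735 regions (76.7%) and lower in 171, where 66.0% of all listed regions were higher. The median difference, *MommeD43* minus WT, was 0.11 on the log2 scale (quartiles 0.01 and 0.21), against 0.07 over all regions and 0.04 in isolated regions. In the *Hox* regions it was larger, at 0.17, and all 168 of them were higher. With 1 value per domain, 171 of 229 (74.7%) were higher and the median was 0.11. In 147 domains all regions were higher, in 48 all were lower, and in 34 both signs occurred. Over the 228 domains with a WT mean above 4, the difference went only weakly with the mean WT value (Pearson's r = 0.16). Its median was 0.03 in the 34 domains with a WT mean of 0 to 7 and 0.15 in the 59 with a mean above 9. After a local fit of the difference on the level, the median was 0.01 in the members and -0.01 in isolated regions. Then 51.4% of the members were higher, beside 49.0% of all listed regions. The fit included the members.

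**Figure D3:**
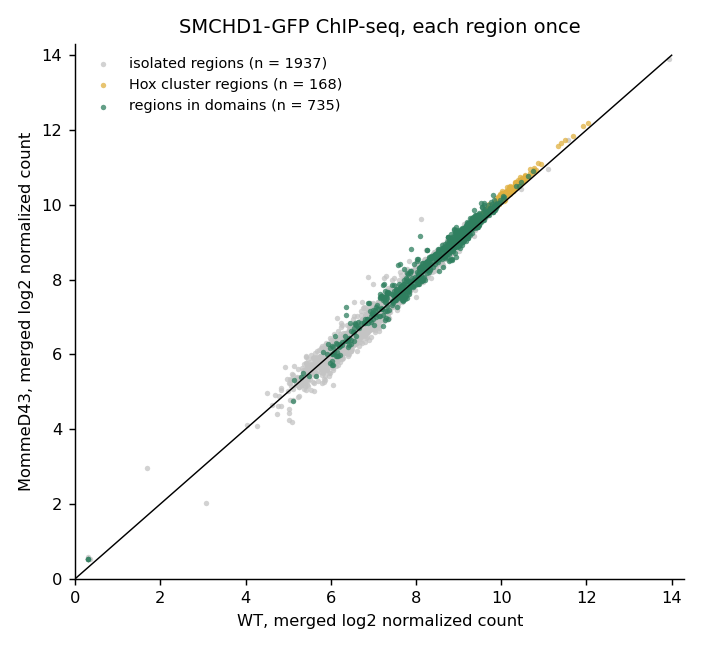
Merged log2 normalized count in *MommeD43* against WT for 735 regions in domains (green), 168 *Hox* cluster regions (yellow) and 1937 isolated regions (grey), each region a point, with the line of equal values. Regions in domains lie close to the line from 5.12 to 10.74 in WT, apart from 2 at the lowest value of the table.

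Few members were far apart between genotypes. A difference over 0.5 was found in 14 of 735 members (1.90%), beside 1.69% of all listed regions. All 14 were higher in *MommeD43* (1.23% of all regions were over 0.5 higher), and no member was over 0.5 lower (0.458% of all regions). These 14 regions lay in 8 domains. The nearest members below the limit were at 0.49 and 0.49, the nearest above at 0.51 and 0.51. The count was 9 relative to the median difference of all listed regions and 9 after the fit on level.

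The largest difference between genotypes was in the domain by *Tbx3*, a T-box gene of limb, heart and breast development, on chromosome 5. The 2 regions lay at the far end of the gene, where 1 overlapped its last part, and both peaks lay beyond it, in the noncoding gene *Tbx3os2*. They had 8.10 and 7.88 in WT and 9.18 and 8.82 in *MommeD43*, a mean difference of 1.01. The counting SDs of these differences were 0.07 and 0.08, a lower bound that holds no spread between lines. The domain was named for its difference, so these SDs do not test it. The 2 regions in an intron of *Tmem132b*, also on chromosome 5, differed by 0.80 on average, with 7.58 and 7.62 in WT and 8.39 and 8.41 in *MommeD43*. Those at the start of *Tcerg1l* on chromosome 7 differed by 0.64, from 7.22 and 7.25 to 7.86 and 7.89. The intronic regions of *Naip6*, a gene of the innate immune NAIP family on chromosome 13, had 6.35 and 6.37 in WT and 7.26 and 7.05 in *MommeD43*, a mean difference of 0.80. Only 53.2% and 47.7% of their 31-base sequences occurred once in the genome, since the *Naip* genes are near copies of one another, so reads there cannot be placed with certainty.

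The AP-2 genes differed among themselves. The 4 regions at the start of *Tfap2b* averaged 8.01 in WT and 8.51 in *MommeD43*, and the 2 at *Tfap2c* averaged 8.25 and 8.79, mean differences of 0.49 and 0.54, whereas *Tfap2a* differed by 0.05. The next domains were the 5S ribosomal RNA domain on chromosome 8 (9.57 and 10.05) and a domain at *Il3ra* on chromosome 14 (8.92 and 9.37), which encodes a subunit of an interleukin receptor. The region of the *Nkx6-1* domain furthest downstream of the gene also passed the limit, with 7.73 in WT and 8.29 in *MommeD43*, while the 7 others differed by 0.24 to 0.39.

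The largest differences in the other direction were smaller. The domain lowest in *MommeD43* lay at the start of the assembled part of chromosome 9 (2994851 to 3007400) and had 7.27 in WT and 6.85 in *MommeD43*, a difference of -0.42. Its neighbour from 3010001 had 6.68 and 6.46. Repeats took up 97.8% and 96.0% of these domains and only 10.0% and 6.93% of their 31-base sequences were unique, so the reads could have come from other copies. Among domains of mostly unique sequence, a domain without protein-coding gene on chromosome 10 from 51548351 had 7.29 and 6.95, a difference of -0.34. At *Plag1*, a zinc finger gene on chromosome 4 whose domain also holds the start of *Chchd7*, all 7 regions were lower in *MommeD43*, with differences of -0.34 to -0.28 and means of 8.77 in WT and 8.47 in *MommeD43*. Among the other domains with 5 or more regions the lowest mean difference was -0.10, at *4930447C04Rik*.

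The 4 further domains on this side had 2 regions each. A domain at the olfactory receptor gene *Olfr1295* had 5.85 in WT and 5.57 in *MommeD43*, and a domain on chromosome 12 from 56498351, 1850 bp from that of *Nkx2-1*, had 7.74 and 7.48. *Nr3c2*, the gene of the mineralocorticoid receptor, had 8.85 and 8.62, and an intronic domain of *Themis*, a T cell gene, had 6.16 and 5.95.

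**Figure D4:**
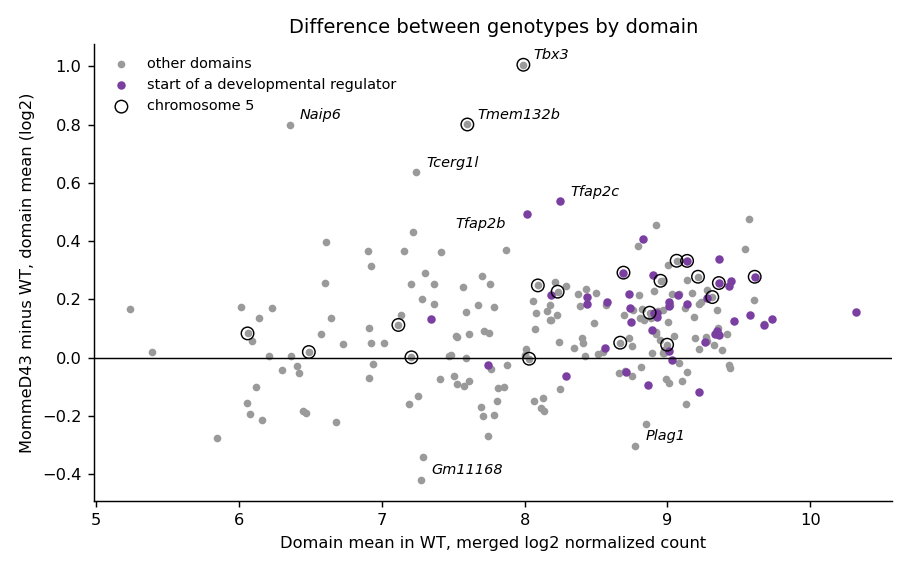
Mean difference of each domain (*MommeD43* minus WT, log2) against its mean WT value, for the 228 domains with a WT mean above 4. Purple points hold the start of a listed developmental regulator and circles mark chromosome 5. *Tbx3* (1.01) and *Tmem132b* (0.80) lie highest, and the repeat-rich *Gm11168* domain on chromosome 9 (-0.42) lowest.

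By gene family, most domains were slightly higher in *MommeD43*. Of the 45 domains with a listed regulator 39 were higher, with a median difference of 0.16, against 132 of the other 184 and a median of 0.08. After the fit on level the medians were 0.06 and 0.02. Over all 229 domains, 171 (74.7%) were higher, with a median of 0.11. Of the 28 homeobox and paired-box domains 24 were higher (median 0.18), and the 4 lower ones were *Irx1* (-0.12), *Six3* (-0.09), *Alx1* (-0.05) and *Nkx2-1* (-0.01). The highest of this family were *Dlx2*, a gene of ventral forebrain interneurons (8.83 in WT and 9.23 in *MommeD43*), *Meis2* (9.36 and 9.70) and *Nkx6-1*.

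The neural stem cell gene *Sox2* had 8.91 in WT and 9.06 in *MommeD43* over 2 regions, and the proneural bHLH genes *Neurog2* and *Atoh1* had 8.73 and 8.95, and 8.18 and 8.40. The bHLH gene *Hand2* of heart and limb had 9.36 and 9.44 over 5 regions, *Twist1* 8.56 and 8.60, and *Bhlhe22* 8.29 and 8.23. Of the 5 bHLH domains 4 were higher in *MommeD43*, beside 74.7% of all domains. The forkhead domains were at 9.35 and 9.44 (*Foxa1*, a pioneer factor of endoderm), 9.28 and 9.48 (*Foxd2*), 9.14 and 9.32 (*Foxd1*) and 7.75 and 7.72 (*Foxp2*). *Zic1* and *Zic4* shared a domain at 8.93 and 9.07, *Ebf2* had 8.74 and 8.87, and *Gata6* had 8.89 and 8.98. *Fgf9*, the only signalling gene, was lower in *MommeD43*, at 9.13 and 8.97. The 2 domains in the *Pcdha* cluster, which encodes cell surface proteins that vary between neurons, were at 6.91 and 7.27 and at 7.47 and 7.48.

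The difference also varied between chromosomes. On chromosome 5, 19 of 20 domains were higher in *MommeD43*, with a median of 0.24, and 5 of the 14 regions over 0.5 apart lay there. Isolated regions of the same chromosome were higher in 99 of 134, with a median of 0.09. On chromosomes 10, 12, 15 and 16 the median was below 0 (-0.02, -0.01, -0.04 and -0.01). Without chromosome 5, 152 of 209 domains (72.7%) were higher, the median was 0.09 and 9 regions were over 0.5 apart. Lines, batch and genotype cannot be told apart in these merged values.

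**Figure D5:**
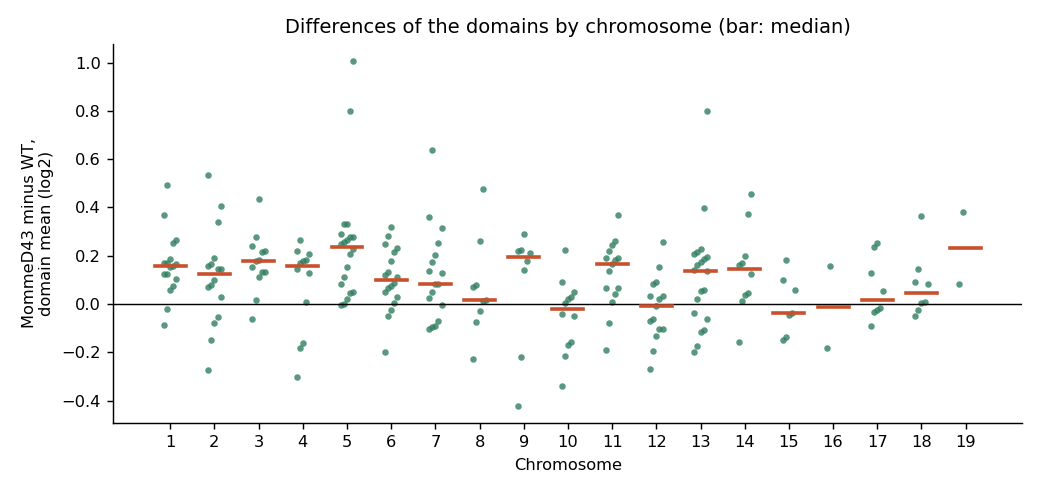
Mean difference of each of the 229 domains (points, *MommeD43* minus WT, log2) by chromosome, with the median as a bar. The median is highest on chromosome 5 (0.24, 20 domains) and on chromosome 19 (0.23, 2 domains only).

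One domain held a listed peak but no reads. The 2 regions at *Ppp2r3d* on chromosome 9 (124417751 to 124431950) were at the lowest value of the table in both genotypes, 0.31 in WT and 0.53 in *MommeD43*, which corresponds to 0 reads in all libraries and allows up to 3. These values differ only through the library factors, and the apparent difference of 0.22 is not a measurement. This is 1 of the 171 domains counted as higher.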

How the data were processed

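GFP ChIP-seq was performed in 3 WT and 3 *MommeD43* primary female NSC lines, with 16 µg of anti-GFP, and sequenced as 75 bp single-end reads. The authors trimmed reads with Trim Galore 0.4.4, mapped them with Bowtie2 2.3.4.1 to GRCm38.p6 and counted reads, extended by 150 bp, in SeqMonk over published peaks with 5000 bp on each side, which held for 2840 of 2840 regions here. The authors deposited log2 values, normalized by total library size and merged over the 3 lines, as 1 column per genotype. The WCE libraries, 1 for each genotype, were not analysed here.

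Members and lists were chosen with earlier results of these data known. Regions sharing at least 1 base were chained into domains. Low values showed how lines had been merged: the product of the reads of 3 libraries, with 0 entered as 0.9, was whole within 0.05 in 14 of 14 WT and 29 of 29 *MommeD43* values tested. The library factor this gives (0.46 and 0.68) converts each value to reads in a library, as a geometric mean. From the 5th to the 95th percentile, members held 59.8 to 634 reads in WT and 51.1 to 603 in *MommeD43*. With merged values no test was run. Called differences were those over 0.5. Local fits used 0.3 of the regions with a WT value above 4. Genes came from GENCODE M21, and GC, repeats and unique 31-base sequences from GRCm38.p6. Functions were tested on simulated data. The tools were Python 3.11.15 with statsmodels 0.14.6, pandas 2.3.3, NumPy 2.4.6, Numba 0.67.0, SciPy 1.17.1 and Matplotlib 3.10.9.

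Named domains were the 12 with most regions, the 10 highest in WT, the 8 with the largest mean difference in each direction among those with a WT mean above 4, and up to 6 per gene family, most regions first. A few domains and genes are not reported here. Others were chosen after their values were seen. A domain is called by a listed regulator, otherwise by another protein-coding gene, that starts in it or, failing that, overlaps it.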

Additional observations from a re-analysis of the deposited data

How the results depend on the processing

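No paired analysis was possible because there is 1 merged value per genotype, and leaving out single lines was not possible for the same reason. Leaving out *Hox* regions first gave the same 735 regions and 229 domains, and at least 1000 shared bases gave 725 and 227. Joining peaks under 1000 bp apart, without the added 5000 bp, left 417 regions in 161 domains, with a median WT value of 8.92. That median was 8.42 with 1 value per domain and 5.33 per kb of region, a different unit. The median difference of the regions, 0.11, was 0.0384 relative to all listed regions, 0.00597 after the fit on level and 0.0226 after the fit on GC content. It was 0.0157 with the level fit made without the members, a setting chosen after seeing the data. For the domains it was 0.0312 after the fit on level. Members higher in *MommeD43* were 61.9% relative to the median of all regions and 51.4% after the fit on level. Regions over 0.5 apart numbered 9 relative to that median, 9 after the fit, and 1 over 1 apart. Domains with any part of a gene were 82.5%, and with a protein-coding start 52.8%. No alternative turned a direction, and the causes of these shifts were not tested. The other 21 of 37 settings moved values by less than counting error or stayed within 1.5 times. Depth limits weak members most.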
